A study of Mus musculus with 6 samples.

Results

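The PPAR, PGC-1 and ERR regulators are 10 genes, chosen by name among the 49315 genes of the count table through their Ensembl identifiers. They are the peroxisome proliferator-activated receptors Ppara, Ppard and Pparg, the coactivators Ppargc1a and Ppargc1b, the estrogen-related receptors Esrra, Esrrb and Esrrg, the retinoid X receptor Rxra and the nuclear respiratory factor Nrf1. All 10 were found, and all 10 had enough counts to be tested. Their transcripts were counted in 6 whole hearts, from mice of strain C57BL/6, by RNA sequencing: 3 from conditional knock-in mice with the Txnip C247S mutant and 3 from wild-type mice with wild-type Txnip. The labels give both genotypes the MerCreMer recombinase and treatment with 4-hydroxytamoxifen, the drug that activates it. They name no promoter for the recombinase, and no age, litter or batch. Txnip encodes the thioredoxin-interacting protein, an alpha-arrestin that binds thioredoxin and restrains glucose uptake.

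The heart draws most of its ATP from fatty acids, and these regulators are known for setting the capacity for that oxidation. PPARs are nuclear receptors that bind fatty acids and, as dimers with a retinoid X receptor, switch on genes for the uptake, storage and oxidation of lipids. ERRs are orphan nuclear receptors that bind short sites in genes of oxidative phosphorylation and the citric acid cycle. PGC-1 proteins bind no DNA themselves: they dock on PPARs, ERRs and NRF1 and recruit the machinery of transcription, and NRF1 acts on genes for the respiratory chain and the copying of mitochondrial DNA.

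Txnip, the targeted gene, was read first. It had 438, 391 and 429 CPM (counts scaled to library size, TMM-normalised) in the knock-in hearts, against 724, 791 and 741 CPM in the wild-type hearts. Its log2 fold change, knock-in over wild-type, was −0.84 ± 0.09 (SE; adjusted p = 0.00379 in edgeR). Counts per gene show the amount of transcript, not the allele. Library totals lay between 14737704 and 15620476 counts in the knock-in hearts and between 14146048 and 14560325 in the wild-type hearts. Genes were called at an edgeR quasi-likelihood p, adjusted by Benjamini-Hochberg, under 0.05, and 38 of 12777 tested genes were called (0.297%). Hearts knock-in 2 and wild-type 3 stood apart from the others of their genotype. Both had the highest level of their genotype for 22.0% of tested genes and the lowest for 22.6%. In 4 classes of equal size by exon length, 40.8% of the longest genes were highest in both, against 7.24% of the shortest. Values without this pair of hearts are therefore given beside those with all 6, a choice made after the data were seen. The shares were not taken for any other pair of hearts, so how unusual this pair is was not measured.

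None of the regulators passed the test: 0 of 10 were called by edgeR, 3 log2 fold changes were positive and 7 negative, and their median was −0.08, beside −0.01 over all tested genes. At an unadjusted p under 0.05, 1 of 10 was lower in the knock-in hearts (Esrra) and 0 were higher, against 9.97% of all tested genes in either direction, 5.23% lower and 4.74% higher. The groups did not overlap for 1 of the 10 (Nrf1), against 16.1% of all tested genes. With DESeq2 and with limma-voom, 0 of 10 were called as well. In whole hearts, fewer cells of a type and less RNA per cell cannot be told apart.

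**Figure D1:**
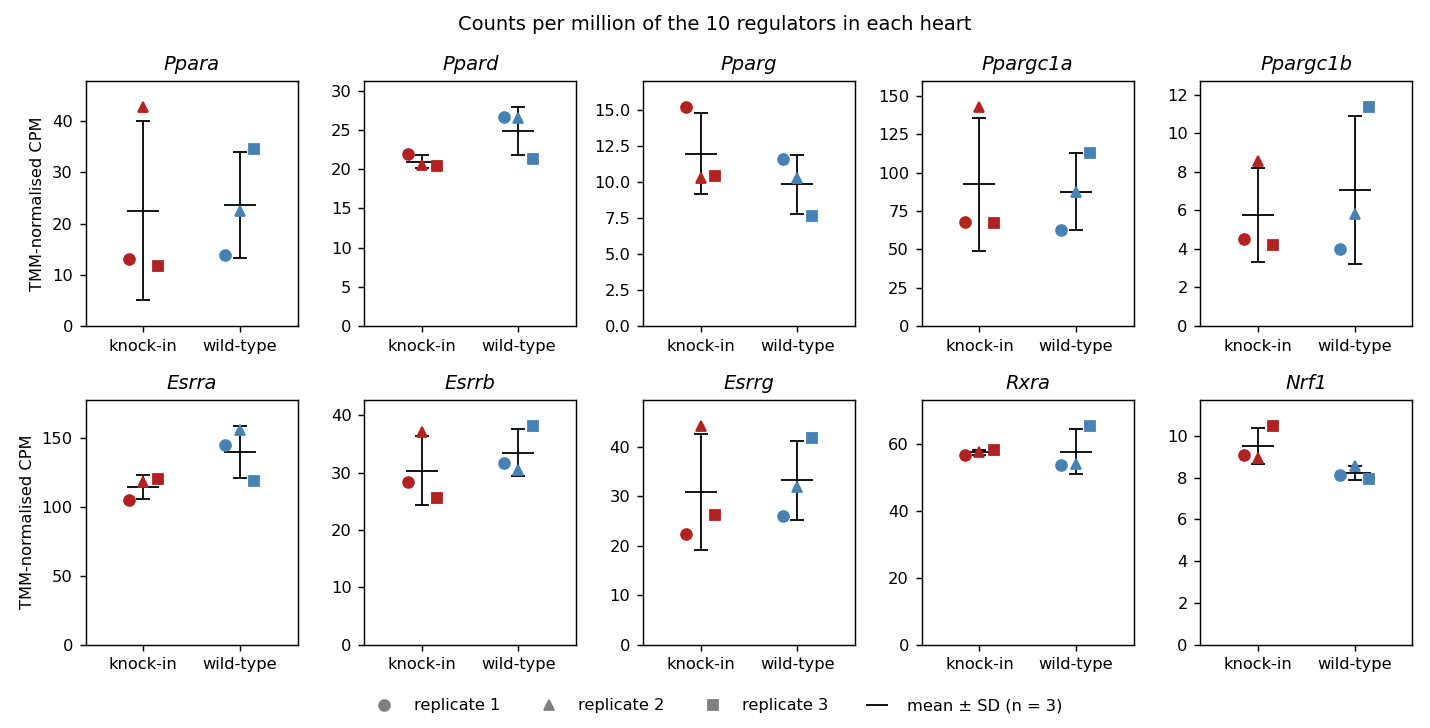
Each panel plots TMM-normalised CPM (vertical axis, from 0) of 1 regulator in the 3 knock-in hearts (red, left) and the 3 wild-type hearts (blue, right). Marker shapes give the replicate and black bars the mean ± SD. Ppara ran from 11.8 to 42.7 CPM within the knock-in hearts alone, and Nrf1 is the 1 gene whose genotypes did not overlap.

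The order of the transcripts was read per length, as CPM per kilobase of exon. Esrra stood first, with 26.1 ± 1.93 CPM per kilobase in knock-in hearts and 32.0 ± 4.31 in wild-type hearts (SD, n = 3 each). Ppargc1a followed with 14.0 ± 6.60 in knock-in hearts and 13.3 ± 3.82 in wild-type hearts, and Esrra was above it in 6 of 6 hearts. Rxra had 10.5 ± 0.148 CPM per kilobase in knock-in hearts and 10.5 ± 1.23 in wild-type hearts. From there the ranges of neighbours overlapped: Ppara, Esrrb, Esrrg, Pparg, Ppard, Ppargc1b and Nrf1 followed in falling order of their mean over 6 hearts. Esrra was the only member whose range was clear of the next one's. Rxra exceeded Ppargc1a in the other 3 hearts, and Ppara, Esrrb and Esrrg each led the next in no more than 5 hearts. Nrf1 came last, with 0.926 ± 0.0824 CPM per kilobase in knock-in hearts and 0.799 ± 0.0319 in wild-type hearts. It lay below Ppargc1b in 6 of 6 hearts. Length here is the union of all annotated exons, 10282 bases for Nrf1, against 3584 for its longest coding transcript. For Ppard these lengths are 7514 and 3277 bases. The order therefore depends on the length used. Before division by length, mean CPM was higher for Nrf1 than for Ppargc1b. The means were 9.52 against 5.76 CPM in knock-in hearts and 8.22 against 7.06 CPM in wild-type hearts. The lowest raw count of any member was 59, for Ppargc1b in wild-type 1, so the scatter described next was measured well above the floor of 3 counts.

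**Figure D2:**
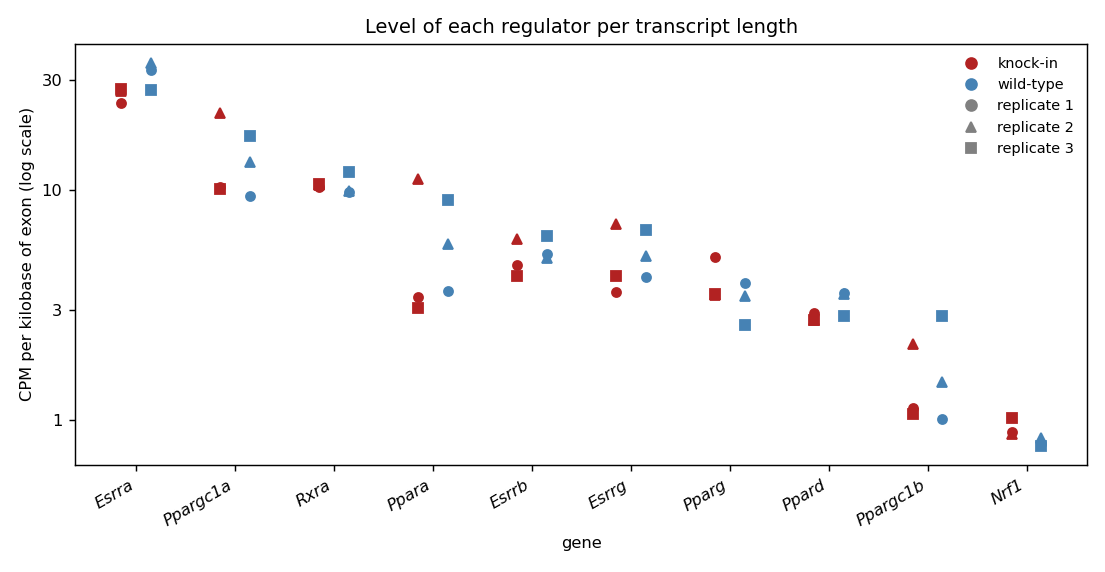
CPM per kilobase of exon (vertical axis, log scale) is plotted for each regulator (horizontal axis, in falling order of the mean), with knock-in hearts in red on the left of each pair and wild-type hearts in blue. The range of Esrra is clear of that of Ppargc1a, and every later pair of neighbours overlaps.

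Promoter windows were available for 9 of the 10 genes, as 17 windows of RefSeq (GRCm38.p6) that reach from 250 bases before an annotated start to 50 after it. The starts of Ppara, Esrrg and Rxra shown here lie inside the span that GENCODE gives the gene. Only the 250 bases before each start were searched, on both strands. The search was for the short words of factors that are known to regulate this network. Of the windows, 4 are shown because they hold a word of a factor tied to this network: NRF1, CREB, MEF2 and ERR. Capitals mark the word. Only the stretch outside GENCODE exons is printed, 5′ to 3′ on the gene's strand. The windows lie at chr15:85735714-85735775 for Ppara, chr5:51567727-51567975 for Ppargc1a, chr1:187608900-187609005 for Esrrg and chr2:27709042-27709291 for Rxra.
Ppara: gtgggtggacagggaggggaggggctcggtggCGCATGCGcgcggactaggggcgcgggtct
Ppargc1a: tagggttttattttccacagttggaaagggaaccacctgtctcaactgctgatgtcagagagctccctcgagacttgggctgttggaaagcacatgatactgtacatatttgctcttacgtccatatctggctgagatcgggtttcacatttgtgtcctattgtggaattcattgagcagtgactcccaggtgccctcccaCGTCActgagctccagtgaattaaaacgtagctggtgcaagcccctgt
Esrrg: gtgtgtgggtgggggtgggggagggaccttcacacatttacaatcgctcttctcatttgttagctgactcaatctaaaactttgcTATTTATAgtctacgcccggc
Rxra: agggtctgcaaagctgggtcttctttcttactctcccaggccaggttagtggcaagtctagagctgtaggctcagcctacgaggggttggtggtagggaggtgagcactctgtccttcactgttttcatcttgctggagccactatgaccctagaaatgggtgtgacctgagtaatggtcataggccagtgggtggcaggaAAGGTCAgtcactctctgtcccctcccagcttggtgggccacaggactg

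The Ppara window holds CGCATGCG, the core of the NRF1 site, 30 bases before this RefSeq start. This word occurs in 1.55% of all 32851 mouse windows. The Ppargc1a window, on the minus strand, holds CGTCA, the reverse complement of the CREB half-site TGACG, 49 bases before the start. That half-site occurs in 17.8% of windows, among them also 1 each of Esrrb and Ppara, and CREB is known to induce Ppargc1a through cAMP signalling. The Esrrg window holds the MEF2 core TATTTATA, found in 1.56% of windows and also in 1 of Nrf1. The Rxra window holds the ERR half-site AAGGTCA, found in 4.08% of windows. The PPAR response element (DR1) occurs in 0.0335% of windows and in 0 of the 17. A match is a run of letters and no evidence of binding, and a gene count does not tell which start was used.

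Ppara, the main fatty acid receptor of heart muscle (ENSMUSG00000022383, chr15:85734983-85802819, GRCm38), had 13.1, 42.7 and 11.8 CPM in the knock-in hearts, against 13.9, 22.4 and 34.6 CPM in the wild-type hearts. Knock-in 2 and wild-type 3 were high, the other 4 hearts lay lower, and the wild-type range lay inside the knock-in range. Its log2 fold change was −0.07 ± 0.63 (SE; adjusted p = 0.992 in edgeR), with a 95% interval of −1.65 to 1.52, which in fold is 0.319 to 2.86. The spread of Ppara within genotypes (SD 0.86 on the log2 scale) was wider than that of 99.3% of tested genes, and the highest heart had 3.62 times the CPM of the lowest. Without knock-in 2 and wild-type 3, its log2 fold change was −0.53 ± 0.19 (edgeR adjusted p = 0.181).

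Ppard, the widely expressed PPAR that also drives fatty acid oxidation in muscle (ENSMUSG00000002250, chr17:28232700-28301474), varied far less. It had 22.0, 20.6 and 20.4 CPM in the knock-in hearts, against 26.7, 26.5 and 21.3 CPM in the wild-type hearts. Wild-type 3 fell among the knock-in hearts, and the other wild-type hearts were above all of them. The log2 fold change was −0.24 ± 0.13 (SE; adjusted p = 0.577 in edgeR), with a 95% interval of −0.52 to 0.04. Without the pair of hearts it was −0.32 ± 0.12 (edgeR adjusted p = 0.169).

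Pparg, the master regulator of fat cell formation (ENSMUSG00000000440, chr6:115360951-115490399), had 15.2, 10.3 and 10.4 CPM in the knock-in hearts, against 11.6, 10.3 and 7.61 CPM in the wild-type hearts. Knock-in 1 was the highest heart and wild-type 3 the lowest, with the rest intermingled. Its log2 fold change was 0.28 ± 0.20 (SE; adjusted p = 0.718 in edgeR). Fat cells are rich in Pparg, and adipocyte markers summed to 412 to 565 CPM in the knock-in hearts and 339 to 528 CPM in the wild-type hearts. Most of that sum was Fabp4, which endothelial cells also express: 7 of 9 adipocyte markers averaged under 1 CPM, and Lep and Plin1 had 0 counts in all 6 hearts. The 2 markers tested, Fabp4 and Cidea, had log2 fold changes of 0.20 and 0.62, and 0 were called. Cidea was called higher in the fit of 4 hearts, which called 3.04% of all tested genes. In the fit of 4 hearts the log2 fold change of Pparg was 0.24 ± 0.18 (edgeR adjusted p = 0.546), and the part of fat cells in its level was not tested.

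Ppargc1a encodes PGC-1α, the inducible coactivator that responds to cold, fasting and exercise (ENSMUSG00000029167, chr5:51454250-51567726). It had 67.6, 142.5 and 66.8 CPM in the knock-in hearts, against 62.4, 87.5 and 112.7 CPM in the wild-type hearts. Its order of hearts was like that of Ppara, with knock-in 2 and wild-type 3 on top and both genotypes overlapping. The log2 fold change was 0.08 ± 0.36 (SE; adjusted p = 0.979 in edgeR), with a 95% interval of −0.81 to 0.96. Its spread within genotypes (SD 0.54 on the log2 scale) exceeded that of 94.9% of tested genes. Without the pair of hearts the log2 fold change was −0.15 ± 0.13 (edgeR adjusted p = 0.624).

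Ppargc1b encodes PGC-1β, the paralog that supports mitochondrial biogenesis at rest (ENSMUSG00000033871, chr18:61298136-61400431). It had 4.49, 8.56 and 4.23 CPM in the knock-in hearts, against 4.02, 5.82 and 11.4 CPM in the wild-type hearts. Here wild-type 3 was the highest heart and knock-in 2 came next, while in Ppara and Ppargc1a knock-in 2 was above wild-type 3. Its log2 fold change was −0.29 ± 0.41 (SE; adjusted p = 0.892 in edgeR), and the spread within genotypes (SD 0.65) exceeded that of 97.8% of tested genes. Without the pair of hearts it was −0.17 ± 0.24 (edgeR adjusted p = 0.776).

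Esrra encodes ERRα, the partner through which PGC-1α raises genes of oxidative phosphorylation (ENSMUSG00000024955, chr19:6910977-6921813). It had 105, 118 and 121 CPM in the knock-in hearts, against 145, 156 and 119 CPM in the wild-type hearts. Wild-type 1 and wild-type 2 lay above every knock-in heart, and wild-type 3 fell among them. The log2 fold change was −0.29 ± 0.12 (SE; adjusted p = 0.442 in edgeR), with a 95% interval of −0.55 to −0.03, and the two-sided exact permutation test over the hearts gave p = 0.2. Without knock-in 2 and wild-type 3 the log2 fold change was −0.41 ± 0.10 and the gene was called (edgeR adjusted p = 0.0276), in a fit that called 3.04% of 12881 tested genes. Esrra was the 1 regulator called there. It was not called in any fit that left out only 1 heart, where its log2 fold change ran from −0.39 to −0.21. Its exons share 73 bases with Trmt112 on the opposite strand and 91 bases with Mir6990, which is 1.66% and 2.07% of their length.

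Esrrb, best known for its part in stem cells and also expressed in the heart (ENSMUSG00000021255, chr12:86361117-86521628), had 28.4, 37.2 and 25.6 CPM in the knock-in hearts, against 31.8, 30.5 and 38.2 CPM in the wild-type hearts. The genotypes overlapped, and its log2 fold change was −0.14 ± 0.15 (SE; adjusted p = 0.839 in edgeR). Esrrg, which in mice is required for the change to oxidative metabolism in the newborn heart (ENSMUSG00000026610, chr1:187608791-188214885), had 22.3, 44.3 and 26.2 CPM in the knock-in hearts, against 26.0, 31.9 and 41.7 CPM in the wild-type hearts. Both were highest in knock-in 2 and wild-type 3 within their genotypes, unlike Esrra. The log2 fold change of Esrrg was −0.10 ± 0.27 (SE; adjusted p = 0.957 in edgeR), with a 95% interval of −0.72 to 0.51. With the 4 other hearts, Esrrb had −0.20 ± 0.12 and Esrrg −0.25 ± 0.13 (edgeR adjusted p = 0.406 for Esrrb and 0.347 for Esrrg).

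Rxra, the dimer partner that PPARs need to bind DNA (ENSMUSG00000015846, chr2:27676440-27762957), was the most even member within the knock-in hearts. It had 56.5, 57.5 and 58.1 CPM there, against 53.6, 53.8 and 65.3 CPM in the wild-type hearts, where wild-type 3 alone was high. Its means were 57.4 ± 0.808 CPM in knock-in hearts and 57.6 ± 6.70 CPM in wild-type hearts, and the 95% interval of the log2 fold change was −0.25 to 0.24 (edgeR adjusted p = 0.996). Without the pair of hearts it was 0.10 ± 0.10 (edgeR adjusted p = 0.673).

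Nrf1, the nuclear respiratory factor and not the gene Nfe2l1 that shares this alias (ENSMUSG00000058440, chr6:30047988-30153458), had 9.11, 8.96 and 10.5 CPM in the knock-in hearts, against 8.11, 8.59 and 7.96 CPM in the wild-type hearts. Every knock-in heart was above every wild-type heart. The gap between the genotypes was small: the log2 fold change was 0.21 ± 0.15 (SE), with a 95% interval of −0.11 to 0.53, and it did not pass the test (edgeR adjusted p = 0.700). The two-sided exact permutation test gave p = 0.1, the smallest that 3 against 3 allows. Without the pair of hearts, the log2 fold change was 0.24 ± 0.17 (edgeR adjusted p = 0.524).

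**Figure D3:**
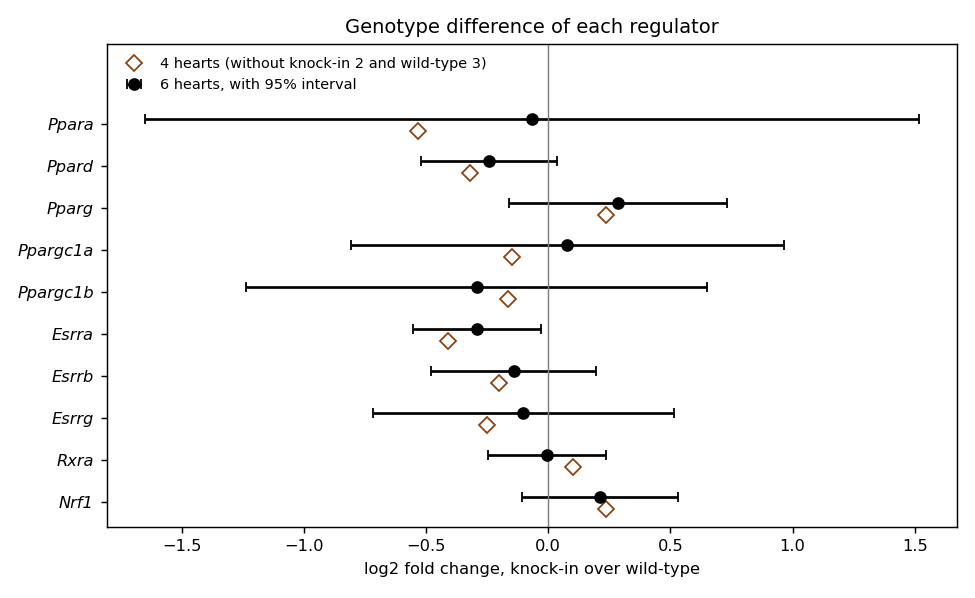
Log2 fold changes, knock-in over wild-type (horizontal axis), are plotted for each regulator, with black circles and 95% intervals from all 6 hearts and open diamonds from 4 hearts, without knock-in 2 and wild-type 3. The interval of Esrra, −0.55 to −0.03, is the 1 that leaves out 0, and that of Ppara is the widest.

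An order of hearts that did not follow genotype recurred among the regulators. Ppara, Ppargc1a, Ppargc1b, Esrrb and Esrrg, 5 of 10, were highest in knock-in 2 within the knock-in hearts and in wild-type 3 within the wild-type hearts, against 22.0% of all tested genes. Pparg and Nrf1 were lowest in both, but by small gaps in the knock-in hearts. Pparg had 10.3 CPM in knock-in 2 and 10.4 CPM in knock-in 3, from raw counts of 156 and 153. Nrf1 had 8.96 CPM in knock-in 2 and 9.11 CPM in knock-in 1. In Ppara the deviation from the gene's mean log2 CPM was 1.06 in knock-in 2 and 0.76 in wild-type 3, and from −0.78 to 0.13 in the other 4 hearts.

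Transcript length went with this order across the whole table. The share of genes highest in both hearts was 7.24%, 15.6%, 24.5% and 40.8% in the 4 length classes, from the shortest genes to the longest. Ppara and Ppargc1b are in the second class, and Ppargc1a, Esrrb and Esrrg in the third. Of the genes lowest in both, Pparg is in the second class and Nrf1 in the fourth. The median deviations of the classes stayed between −0.04 and 0.05 in knock-in 2 and between −0.13 and 0.13 in wild-type 3. The share of counts from mitochondrially encoded genes was 24.1% in knock-in 2, beside 22.9% in knock-in 1 and 23.6% in knock-in 3. It was 28.0% in wild-type 3, beside 24.3% in wild-type 1 and 23.4% in wild-type 2. Endothelial markers summed to 995, 627 and 986 CPM in the knock-in hearts, against 991, 692 and 763 CPM in the wild-type hearts. The 3 hearts with the lowest sums, knock-in 2, wild-type 2 and wild-type 3, were the 3 with the most Ppara and Ppargc1a. These hearts also had the lowest sums of adipocyte and skeletal muscle markers, but not of cardiomyocyte, macrophage or erythroid markers. Adipocyte markers summed to 565, 412 and 520 CPM in the knock-in hearts, against 528, 414 and 339 CPM in the wild-type hearts. Skeletal muscle markers summed to 4.29, 1.98 and 2.79 CPM, against 2.45, 2.22 and 2.01 CPM. The part of length, of the mitochondrial share and of endothelial or other cells in the values of the regulators was not tested.

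**Figure D4:**
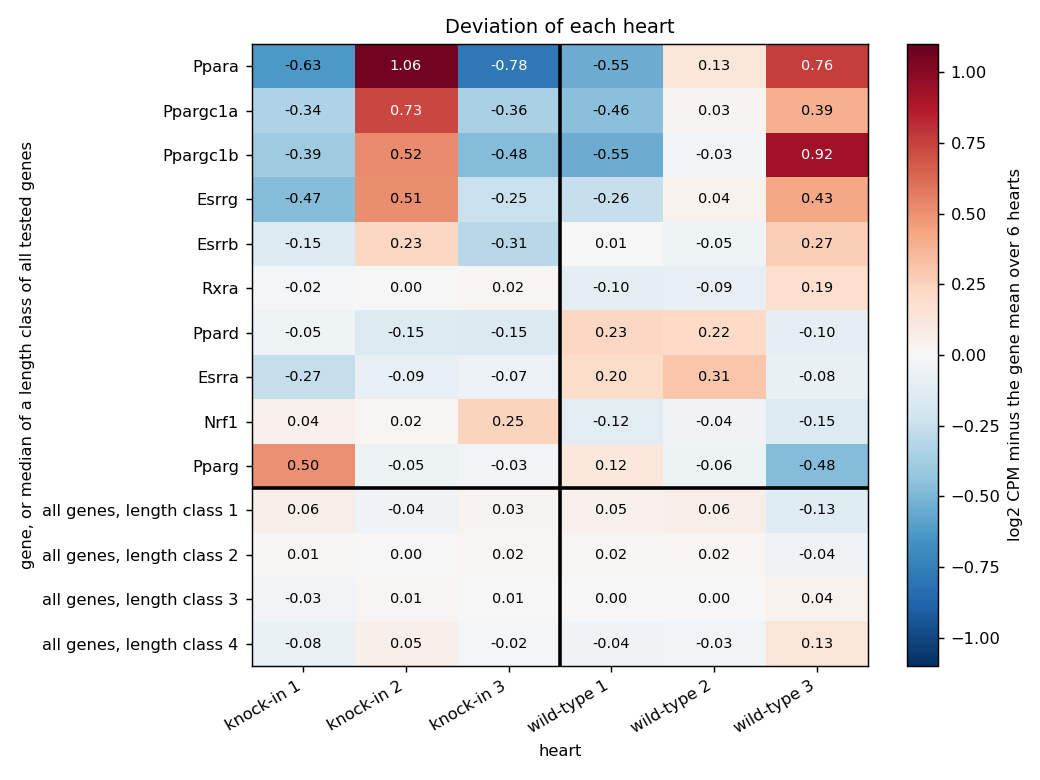
Colour and printed values give log2 CPM minus the gene's mean over 6 hearts, for each regulator (upper block) and as the median over each of 4 classes of all tested genes by exon length (lower block), with knock-in hearts left of the line. Ppara has 1.06 in knock-in 2 and 0.76 in wild-type 3, and the median of the longest class is above 0 in both hearts.

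Genes whose pattern was most like that of a regulator were found by the mean absolute difference of centred log2 CPM over the 6 hearts, among 12776 other genes. For Ppara they were Pdpr, a subunit of the phosphatase that activates pyruvate dehydrogenase (0.11), Snora28, a small nucleolar RNA with 0.455 to 1.78 CPM (0.12), and Hipk2, a nuclear kinase (0.12). Pdpr had 23.4, 79.5 and 26.4 CPM in the knock-in hearts, against 22.8, 40.2 and 56.3 CPM in the wild-type hearts. For Ppargc1a they were Ptprd, a receptor tyrosine phosphatase (0.03), Zbtb41 (0.05) and Lnpep, an aminopeptidase of GLUT4 vesicles (0.07). For Esrra they were AI464131 (0.03), Arl10 (0.04) and Snn (0.04), all lower in the mean of the knock-in hearts and 0 of them called. These distances describe 6 hearts that share the pair standing apart, and no test was made of them.

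The network around the regulators was described with 6 lists holding 173 genes, of which 164 had enough counts and 1 was called. Lists were described by counts and medians only, and 3 genes stand in more than 1 of them.

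Log2 fold changes of known PPAR targets lay mostly above 0. Of 36 listed genes 34 were tested, and 27 had positive log2 fold changes, a share of 79.4% beside 48.3% of all tested genes. Their median was 0.18, beside −0.01 over all tested genes. Among the 10 cardiomyocyte markers, 8 lay above 0 and 2 below, a share of 80%. The median of these markers was 0.10. Whether the targets moved apart from other genes of heart muscle was not tested. Ech1, an isomerase of unsaturated fatty acid oxidation, was called: it had 1510, 1734 and 1647 CPM in the knock-in hearts, against 1096, 1178 and 1053 CPM in the wild-type hearts. Every knock-in heart was above every wild-type heart, and the log2 fold change was 0.56 ± 0.09 (SE; adjusted p = 0.0399 in edgeR). At an unadjusted p under 0.05, 7 of 34 were higher and 0 lower, against 4.74% higher and 5.23% lower of all tested genes. The groups did not overlap for 12 of 34 (35.3%), against 16.1% of all tested genes.

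The next in order of p were Decr1, a reductase of the same oxidation path, at 0.48 ± 0.09 (edgeR adjusted p = 0.0799), and Fabp3, the fatty acid carrier of heart muscle, at 0.55 ± 0.11 (edgeR adjusted p = 0.0847). Fabp3 shares 50.1% of its 31-base words with other transcripts, so its reads are uncertain. Fabp3, Ech1 and Acaa2, the last thiolase of the fatty acid spiral, were the most abundant targets per length, and Acaa2 had 0.34 ± 0.09 (edgeR adjusted p = 0.206). Fgf21 and Cyp4a14, targets best known in liver, were at or near 0 and not tested. With either knock-in 3, wild-type 1, wild-type 2 or wild-type 3 left out, 0 targets were called, and without knock-in 2 there were 2.

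Without knock-in 2 and wild-type 3 together, 5 of 34 targets were called higher: Decr1, Ech1, Fabp3, Pdk4 and Ucp2. That fit called 3.04% of all tested genes. Pdk4, the kinase that shuts pyruvate dehydrogenase when fat is burned, had 149.0, 96.8 and 159.2 CPM in the knock-in hearts, against 60.8, 71.5 and 134.1 CPM in the wild-type hearts. Knock-in 2 was the low knock-in heart and wild-type 3 the high wild-type heart. With all 6 hearts its log2 fold change was 0.60 ± 0.34 (SE; adjusted p = 0.643 in edgeR), and with 4 hearts 1.23 ± 0.10 (edgeR adjusted p = 1.02e-06). These genes were named after their values were seen.

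Receptor and target levels can be set side by side in each heart. The median deviation of the 34 tested targets from their gene means was −0.02, 0.13 and 0.12 log2 CPM in the knock-in hearts, against −0.09, −0.07 and −0.07 in the wild-type hearts. Ppara itself had deviations of −0.63, 1.06 and −0.78 in the knock-in hearts, against −0.55, 0.13 and 0.76 in the wild-type hearts. A median over many genes varies less than 1 gene, so the size of these deviations cannot be compared. Cardiomyocyte markers summed to 77075 to 81973 CPM in the knock-in hearts and 70571 to 72709 CPM in the wild-type hearts. Of these markers 1 of 10, the ventricular light chain Myl2, was called higher, and their part in the targets' difference was not tested.

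Of 30 ERR and PGC-1 targets, all tested, 0 were called. At an unadjusted p under 0.05, 5 of 30 were higher and 0 lower, against 4.74% higher and 5.23% lower of all tested genes. Positive log2 fold changes made up 20 of 30, against 48.3% of all tested genes, and the median was 0.06, beside −0.01. The 4 with the smallest p were Cox7a1 at 0.31 ± 0.10, Cycs (cytochrome c) at 0.26 ± 0.09, Mb (myoglobin) at 0.31 ± 0.11 and Cox8b at 0.30 ± 0.11, with edgeR adjusted p from 0.329 to 0.390. Each of these serves electron transport or oxygen storage, and Cycs and Mb share 32.0% and 35.2% of their words with other transcripts. Mb, Slc25a4, the ATP/ADP carrier, and Ckmt2, the mitochondrial creatine kinase, were the most abundant per length, and Slc25a4 and Ckmt2 had log2 fold changes of −0.02 and −0.04. Without knock-in 2 and wild-type 3, Mb was called higher, at 0.33 ± 0.08 (edgeR adjusted p = 0.0287). That fit called 3.04% of all tested genes.

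Of 21 genes of NRF1 targets and mitochondrial genome maintenance, 0 were called and the median was −0.01. At an unadjusted p under 0.05, 3 of 21 were higher and 3 lower, against 4.74% and 5.23% of all tested genes. The 4 with the smallest p went both ways. Tspo, a cholesterol-binding protein of the outer mitochondrial membrane, had 0.54 ± 0.13 (SE; adjusted p = 0.146 in edgeR) and Cox7c, a subunit of cytochrome oxidase, 0.23 ± 0.09 (edgeR adjusted p = 0.439). Polg, the polymerase of mitochondrial DNA, had −0.33 ± 0.10 (edgeR adjusted p = 0.247), and Cox6a1, the non-muscle form of a cytochrome oxidase subunit, −0.45 ± 0.14 (edgeR adjusted p = 0.286). Cox6a1 had 53.3, 46.6 and 55.0 CPM in the knock-in hearts, against 82.2, 74.3 and 55.6 CPM in the wild-type hearts, so wild-type 3 stood just above the knock-in hearts. Without the pair of hearts, Tspo was called higher and Cox6a1 lower, in a fit that called 3.04% of all tested genes. Cox4i1, Cox7c and Cox6a1 were the most abundant of the list per length.

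Of 25 RXR partners and coregulators, 0 were called and the median log2 fold change was 0.01. Prmt1, an arginine methyltransferase that modifies PGC-1α, had 0.32 ± 0.11 (SE; adjusted p = 0.331 in edgeR). Med1, the Mediator subunit that nuclear receptors contact, had −0.29 ± 0.14 and Perm1, a muscle factor induced by PGC-1 and ERR, −0.18 ± 0.12 (edgeR adjusted p = 0.509 for Med1 and 0.689 for Perm1). Perm1 was the most abundant of the list per length, with 263, 341 and 271 CPM in the knock-in hearts, against 304, 322 and 369 CPM in the wild-type hearts. Its highest hearts were again knock-in 2 and wild-type 3, as for 13 of the 25 genes (52.0%). This share was 22.0% over all tested genes and 40.8% in the longest of the 4 length classes. Rxrg, the RXR of muscle, and Lpin1, which coactivates PPARα, came next per length with log2 fold changes of 0.10 ± 0.11 and −0.15 ± 0.13.

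Among 33 upstream regulators of PGC-1 and PPAR, 32 were tested (Klf5 was not) and 0 were called, with a median of 0.01. Those with the smallest p were Prkag2, a subunit of AMP-activated kinase, at 0.32 ± 0.12 (edgeR adjusted p = 0.381), Mtor at −0.21 ± 0.11, Mybbp1a, a repressor of PGC-1α, at −0.18 ± 0.10, and the muscle factor Mef2c at −0.29 ± 0.18 (edgeR adjusted p from 0.594 to 0.648 for these last 3). Prkag2 was higher in each knock-in heart, with 27.5, 27.9 and 25.0 CPM, against 21.2, 23.2 and 20.1 CPM in the wild-type hearts. In this list, 15 of 32 genes (46.9%) were highest in knock-in 2 and wild-type 3. All tested genes had a share of 22.0%, and those of the longest length class 40.8%. The most abundant per length were Trim63, Prkag1 and Nampt, with log2 fold changes between −0.05 and 0.07.

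Of 31 other nuclear receptors 25 were tested, 0 were called, and 3 were lower and 0 higher at an unadjusted p under 0.05, against 5.23% lower and 4.74% higher of all tested genes. Those 3 were Nr1h3 (LXRα), Nr1h2 (LXRβ), receptors for oxysterols, and Nr2f6. Nr1h3 had 12.8, 13.6 and 11.1 CPM in the knock-in hearts, against 23.0, 20.1 and 18.2 CPM in the wild-type hearts. The genotypes did not overlap, and the log2 fold change was −0.71 ± 0.14 (SE; adjusted p = 0.0842 in edgeR), or −0.84 ± 0.14 without the pair of hearts (edgeR adjusted p = 0.00181). Macrophages express Nr1h3, and macrophage markers summed to 237 to 258 CPM in the knock-in hearts, against 314 to 358 CPM in the wild-type hearts. Of these, 10 of 10 had negative log2 fold changes, against 6600 of 12777 tested genes. The lysozyme Lyz2 was the 1 called lower, against 0.297% of all tested genes called in either direction. The part of macrophages in the level of Nr1h3 was not tested.

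Nr2f6 had −0.63 ± 0.16 (edgeR adjusted p = 0.177), with 36.4% of its words shared with Ocel1, Nr1h2 −0.33 ± 0.12 (edgeR adjusted p = 0.355), and Nr4a2, with at most 1.5 CPM, −0.96 ± 0.46 (edgeR adjusted p = 0.530). Without knock-in 2 and wild-type 3, Nr1h3, Nr2f6 and Nr4a1 were called lower and Nr1d1, a clock repressor, was called higher. That fit called 3.04% of all tested genes, against 0.297% with all 6 hearts. Nr4a1, an immediate early gene, had 9.95, 49.9 and 10.2 CPM in the knock-in hearts, against 20.0, 19.6 and 5.19 CPM in the wild-type hearts. Knock-in 2 was high and wild-type 3 low, so its log2 fold change was 0.64 ± 0.85 with 6 hearts and −0.97 ± 0.14 with 4.

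The most abundant nuclear receptor gene of the list per length was Esr1, the estrogen receptor α. It had 2781, 2913 and 2550 CPM in the knock-in hearts, against 2766, 3241 and 2885 CPM in the wild-type hearts. The genotypes overlapped, at a difference of −0.11 ± 0.10 on the log2 scale (SE; adjusted p = 0.782 in edgeR). Per kilobase it averaged 201 CPM in knock-in hearts and 217 CPM in wild-type hearts, above Esrra, the most abundant of the 10 regulators. MerCreMer is Cre recombinase joined to mutated ligand-binding domains of the mouse estrogen receptor, and a gene count does not tell transgene from endogenous Esr1, so the part of the transgene in this level was not tested. Nr1d1 and Nr1d2 followed per length.

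**Figure D5:**
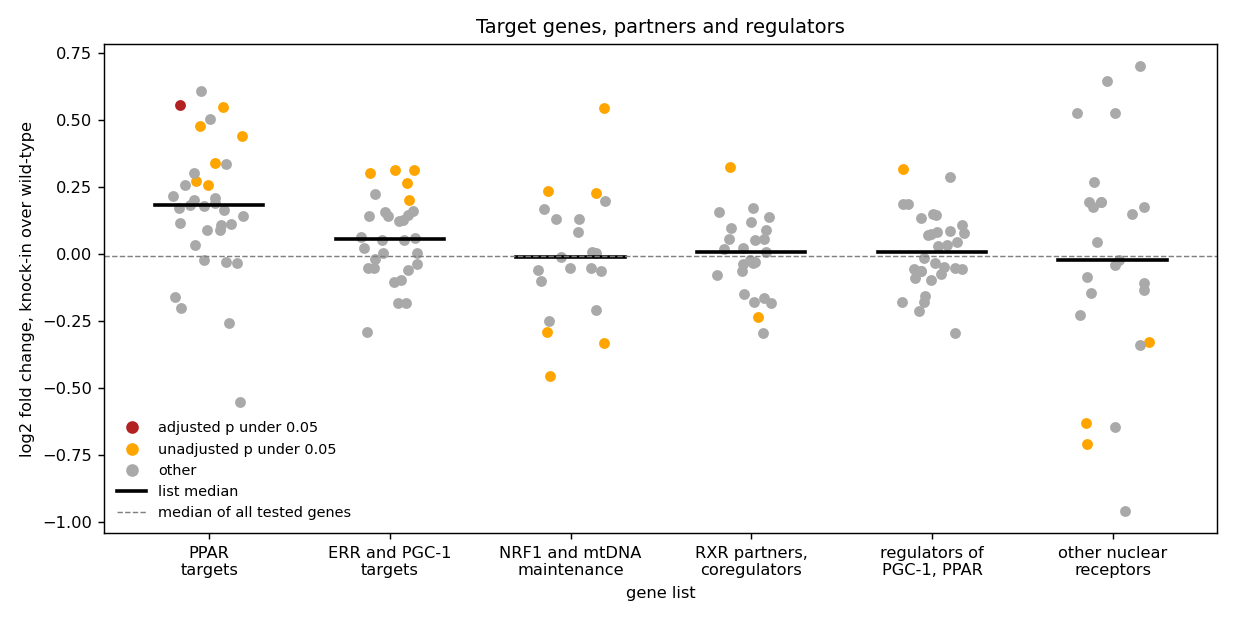
Each point is the log2 fold change, knock-in over wild-type (vertical axis), of 1 tested gene in 6 lists (horizontal axis), coloured by its edgeR p. Black bars are list medians and the dashed line is the median of all tested genes. The median of the PPAR targets is 0.18 and the medians of the other lists lie between −0.02 and 0.06.

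Markers of other cells bear on what the hearts held. Of the cardiomyocyte markers, 10 of 10 were present, with Actc1, the cardiac actin, highest per length. Endothelial markers were led by the cadherin Cdh5, and 0 of 10 were called. Erythroid markers, led by the globin Hbb-bs, summed to 1451 to 1920 CPM in the knock-in hearts, against 465 to 637 CPM in the wild-type hearts. Of these, 5 of 8 were called higher, against 0.297% of all tested genes called in either direction. The globins Hba-a1, Hba-a2, Hbb-bs and Hbb-bt share 71.4%, 91.0%, 66.9% and 59.4% of their words with other transcripts. Most of this is shared with the other alpha or beta gene, so their reads are uncertain and their calls are not separate observations. Skeletal muscle markers, led by the troponin Tnni2, summed to at most 4.29 CPM in any heart, and Myh2 had 0 counts in all. The part of blood cells in the values of the regulators and their targets was not tested.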

How the data were processed

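Per the labels' protocols, total RNA of 6 hearts, 3 per genotype, was purified with an RNeasy Mini kit, and a NEBNext Ultra II kit gave the libraries. The authors deposited raw, unscaled read counts of genes as 1 table, and every column of it was used. STAR, DESeq2, featureCounts and Subread 1.5.2, with build GRCm38.p6, are listed in the submitters' processing notes without their use. Not given in the sources used here are the release of the annotation, the strand setting and how multi-mapping reads were treated, so genes with overlapping or near-identical neighbours are uncertain. Sample descriptions name the columns. Gene names, positions and exon lengths came from GENCODE M21 (GRCm38), which held 49056 of the 49315 identifiers.

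The test was edgeR 4.0.16 under R 4.3.3, with filterByExpr, TMM scaling, a robust glmQLFit and glmQLFTest for genotype, with Benjamini-Hochberg adjustment over 12777 genes and no covariate. Errors and 95% intervals of log2 fold changes follow from the F statistic of this test. The biological coefficient of variation was 14.0%. The scripts were tested on simulated data. A floor of 3 counts equals 0.192 to 0.212 CPM per library and covers counting error only. Log2 CPM used a prior count of 2. Alternatives were other scalings, no filter, limma-voom (limma 3.58.1), DESeq2 1.42.0, a filter at a mean of 1 CPM, no robust estimation, a looser adjusted p of 0.1, mitochondrial genes left out and each heart left out.

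The regulators and gene lists were chosen with earlier results of these data known. Named were the 10 regulators, Txnip, the called genes of each list or else the 4 with the smallest p, the 3 most abundant per length, the 3 genes most like Ppara, Ppargc1a and Esrra, and in marker lists the genes at 0 and the most abundant one. Genes called with 4 hearts, and others described by count, were chosen after their values were seen. One gene that this rule names is not reported here. Replicates were numbered by accession, so the numbers do not pair hearts.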

Additional observations from a re-analysis of the deposited data

How the results depend on the processing

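Of 160 alternative log2 fold changes of the 10 regulators, 144 kept the direction and the side of the threshold, 15 changed sign and 1 passed it. Without knock-in 2 and wild-type 3 together, a choice made after the data were seen, Esrra was called at −0.41, and Ppargc1a (−0.15) and Rxra (0.10) changed sign. With single hearts left out, the log2 fold change ran from −0.91 to 0.32 for Ppara, −0.37 to 0.30 for Ppargc1a, −0.69 to 0.23 for Ppargc1b, −0.45 to 0.10 for Esrrg and −0.054 to 0.095 for Rxra. Without changing sign it ran from 0.09 to 0.42 for Pparg (lowest without knock-in 1, 0.13 without wild-type 3), −0.30 to −0.03 for Esrrb (nearest 0 without knock-in 3), 0.14 to 0.26 for Nrf1 (lowest without knock-in 3) and −0.34 to −0.19 for Ppard. Ppara was positive without knock-in 1 (0.22), knock-in 3 (0.24) or wild-type 3 (0.32), Ppargc1a negative without knock-in 2 (−0.37) or wild-type 1 (−0.12), and Ppargc1b positive without wild-type 3 (0.23). Esrrg was positive without knock-in 1 (0.09), knock-in 3 (0.0053) or wild-type 3 (0.10), and Rxra without knock-in 1 (0.014), knock-in 2 (0.0024) or wild-type 3 (0.10) and with limma-voom (0.0012). The count of all called genes, 38 with all hearts, was 392 with 4 hearts, 131 with DESeq2, 18 with limma-voom, 317 with no filter, 75 at an adjusted p under 0.1 and 5 to 174 with single hearts left out. Called regulators were 1 with 4 hearts and 0 in each fit with a single heart left out. Called PPAR targets, 1 with all hearts, were 5 with 4 hearts, 3 with DESeq2, 4 with no filter, 3 at an adjusted p under 0.1, 0 with library-size scaling or limma-voom and 0 to 2 with single hearts left out. Called ERR and PGC-1 targets were 1 with 4 hearts. Called NRF1 and mitochondrial genome genes were 2 with 4 hearts, 1 with DESeq2, 2 with no filter and 0 to 1 with single hearts left out. Called other nuclear receptors were 4 with 4 hearts, 1 with DESeq2, 2 with no filter, 1 at an adjusted p under 0.1 and 0 to 1 with single hearts left out. The cause was not tested for any of these changes. No paired analysis was possible because the labels give no replicate numbers and the numbers used follow accession order. With 3 hearts per genotype, the 95% interval of Ppara, the member with the widest spread, runs from 0.319-fold to 2.86-fold, and values within it are not excluded for Ppara.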
